A study of Homo sapiens with 12 samples.

Results

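The centromere and kinetochore gene module comprised 45 genes of the 58302 genes with a value in every library. The members were taken by symbol from a list of proteins that build the kinetochore, the spindle checkpoint and the chromosomal passenger complex, and the NDC80 complex, to which the silenced gene NUF2 belongs, was left out. All 45 were present, and all had a value above 0 in each library. A filter on low values, which kept genes at 0.5 FPKM or more in at least 3 libraries, was passed by 45 members in 769-P cells and by 44 in ACHN cells. The member below the filter in ACHN cells was CENPP, at 0.241 to 0.349 FPKM. FPKM counts fragments per kilobase of exon at a common library size and so is a level per length of transcript, which lets levels of different genes be set side by side.

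The kinetochore is the protein layer that forms on the centromere of each chromosome and holds the ends of spindle microtubules in mitosis. Its base is chromatin with the histone variant CENP-A, on which the inner kinetochore network sits, and its outer part consists of KNL1, the MIS12 complex and the NDC80 complex, which together are the microtubule-binding platform. Kinetochores without microtubules send out the spindle checkpoint signal, which holds back the anaphase-promoting complex. Many of these genes, though not all, are transcribed mainly in the G2 and M phases of the cell cycle. The RNA of such genes can follow the share of dividing cells in a culture. In bulk RNA, fewer cells in mitosis and less RNA per cell cannot be told apart.

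The libraries were from 769-P and ACHN, both labelled as clear cell renal cell carcinoma cell lines, sequenced 48 h after transfection with a mixture of siRNAs against NUF2 (si-NUF2) or with a negative control siRNA (si-NC). There were 3 libraries in each of the 4 groups, and what a replicate number stands for is not stated. Here the levels of the partners of NUF2 were compared between the siRNAs in each line. Depth, as reads recovered from the FPKM, was 29244017 to 38864846 per library, and between 81 and 11977 reads lay behind each value of a member. NUF2, the silenced subunit of the NDC80 complex, was at 4.17, 3.86 and 3.01 FPKM under si-NUF2 and at 19.4, 17.8 and 17.8 FPKM under si-NC in 769-P cells. In ACHN cells the NUF2 values were 2.16, 5.14 and 4.25 FPKM against 11.6, 15 and 14.8 FPKM. The groups were apart in both lines, with log2 fold changes of −2.29 and −1.87. The kidney lineage gene PAX8 was at 44.7 to 70.6 FPKM in 769-P and at 57.1 to 199 FPKM in ACHN cells, whereas CA9, a gene that marks most tumours of this type, was at no more than 0.121 FPKM in any library. CDH6, a gene of the proximal tubule, was at 2.35 to 8.19 FPKM in 769-P cells and at 0.00472 FPKM at most in ACHN cells. The other renal and carcinoma markers were present in every library of both lines. PAX2 was at 5.52 to 23.8 FPKM, VIM at 126 to 192 FPKM, KRT8 at 57.4 to 228 FPKM and KRT18 at 35.8 to 115 FPKM. Genes of leukocytes and endothelium were at 0.0953 FPKM or less. In ACHN cells the fibroblast genes COL1A1, PDGFRB and DCN were at 1.14 to 3.87, 0.232 to 2.79 and 0.0248 to 0.083 FPKM. In 769-P cells these fibroblast genes were at 0.14 FPKM or less.

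Log2 fold changes below compare si-NUF2 with si-NC on the scale of log2(FPKM + 0.1), which understates the change of low genes. They come from limma, fitted over all genes of a cell line, and "called" means an adjusted p under 0.05 after Benjamini-Hochberg adjustment over all genes tested. The fit without the replicate number is given first. Same-numbered libraries of a cell line deviated together, and the fit that takes the replicate number as a block is given where it changed the call. An exact permutation test on 3 libraries against 3 cannot go below p = 0.1.

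In 769-P cells some members were higher and others lower under si-NUF2, and genes as a whole also went both ways. Of the 45 members, 10 were called (22.2%), against 10% of all genes tested. The 6 called higher (13.3%, background 5.29%) were ZW10, SKA2, MAD1L1, CENPA, BIRC5 and CENPF, and the 4 called lower (8.89%, background 4.74%) were MIS18A, MIS12, CENPM and CDCA8. The median log2 fold change of the members was −0.03, with a range from −0.66 to 1.42, and that of all genes was −0.01. Of the members, 19 were above 0 (42.2%, all genes 48.5%) and 26 below. With the replicate block 18 members were called (40.0%, background 27.5%), of which 11 were higher (24.4%, background 13.6%) and 7 lower (15.6%, background 14%). Leaving out single libraries gave 3 to 8 called members without the block, the 3 arising without si-NUF2 replicate 2, si-NC replicate 2 or si-NC replicate 3, and 4 members were called without the filter on low values or in a fit of all 12 libraries. ZW10, SKA2 and MIS12 were called in each of the 6 fits that left out 1 library. CENPM and CDCA8 were called in 0 of them, MAD1L1, CENPF and BIRC5 in 1 (without si-NC replicate 1), MIS18A in 1 (without si-NUF2 replicate 1) and CENPA in 2 (without si-NUF2 replicate 3 or si-NC replicate 1).

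In ACHN cells most members were above 0, and none was called in the fit of that line without the block. Limma called 0 of the 44 members (background 0% of 15116 genes), limma-voom on the recovered reads also called 0, and 7 members had an unadjusted p under 0.05 (15.9%, background 8.19%). The silenced gene NUF2 was not called in this limma fit either (log2 fold change −1.87, limma adjusted p = 0.224). The study, using DESeq2, did report differentially expressed genes for ACHN cells. In a fit of all 12 libraries without the block 1 member, ZW10, was called (limma adjusted p = 0.00103). The median log2 fold change was 0.20, with a range from −0.42 to 1.17, against 0.01 for all genes. Of the members, 39 were above 0 (88.6%, all genes 51.2%) and 5 below. The median was 0.05 when si-NC replicate 1 was left out. With the block and without replicate 1, 2 or 3 of both siRNAs it was 0.14, 0.23 and 0.21. With the replicate block 16 members were called (36.4%, background 12.2%). The 15 called higher (34.1%, background 7.14%) were ZW10, MAD1L1, CENPA, SKA2, BIRC5, ZWINT, DSN1, BUB1, CENPF, CENPO, CENPM, BUB1B, INCENP, AURKB and CDC20, and MIS12 was the member called lower (2.27%, background 5.05%). With the block and without replicate 1, 2 or 3 of both siRNAs, fits of fewer libraries, 3, 9 and 0 members were called.

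Counts that need no model set the members beside all genes. In 769-P cells, every si-NUF2 library was above every si-NC library for 9 members (20%, background 16%), and every one was below for 11 members (24.4%, background 17.3%). In ACHN cells these counts were 9 members (20.5%, background 7.86%) and 1 member (2.27%, background 6.44%). Compared within same-numbered pairs, si-NUF2 was higher in all 3 pairs for 13 members of 45 in 769-P cells (28.9%, background 29.7%) and lower in all 3 for 18 (40%, background 33.4%). In ACHN cells si-NUF2 was higher in all 3 pairs for 31 members of 44 (70.5%, background 26.9%) and lower in all 3 for 3 (6.82%, background 28%).

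**Figure D1:**
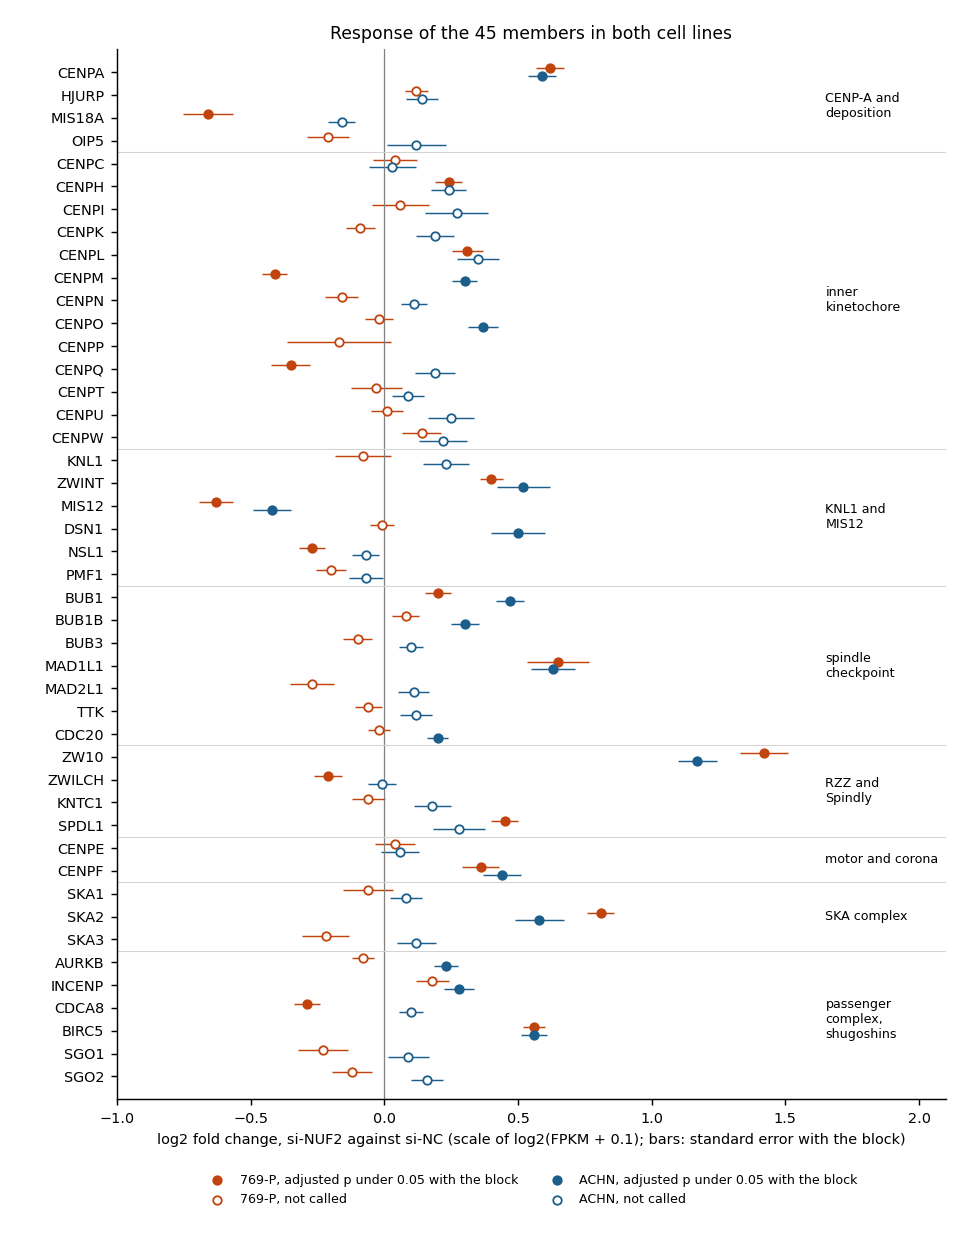
Log2 fold change of each member, si-NUF2 against si-NC, in 769-P (orange) and ACHN cells (blue), on the scale of log2(FPKM + 0.1), with members in rows by role. Bars are standard errors of the fit with the replicate block, and filled points had an adjusted p under 0.05 in that fit. ZW10 is farthest to the right in both lines (1.42 and 1.17), and MIS12 and MIS18A are farthest to the left in 769-P cells (−0.63 and −0.66).

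Promoters are shown for the members whose change in 769-P cells had the lowest p in each direction, among those with a RefSeq entry. RefSeq (GRCh38.p14) gave a promoter for 36 of the 45 members, from 250 bases before to 50 bases after the start site. Where a gene had several start sites, the first listed was used, and matches at the others were not sought. Genes of late cell cycle phases often hold a cell cycle homology region (CHR, searched as TTTGAA or TTCGAA) near a CCAAT box (searched as CCAAT), and genes of G1/S often hold an E2F site (searched as TTTCGCGC, TTTGGCGC, TTTCCCGC or TTTGCCGC), all on both strands. In the lines below the capitals mark the match, the strand is that of the gene, and the number is the distance of the first capital from the start site. MIS12, ZW10, SKA2 and CENPA were called in the same direction in both lines with the replicate block, CDCA8 and CENPQ were called lower in 769-P cells alone, and 1 CCAAT match is shown for each of the genes that held more, MIS12 (2), SKA2 (5), CENPA (2) and CDCA8 (3).
MIS12 E2F match at −109, chr17:5486254-5486283, forward strand: cccactttagtTTTCCCGCgactgcccaat
MIS12 CCAAT match at −42, chr17:5486320-5486349, forward strand: aacgcacatccgCCAATcacgagttgcgtc
ZW10 CHR match at −224, chr11:113773899-113773928, reverse strand: gaagcaacgaacTTTGAAaacaactaagga
ZW10 CCAAT match at −146, chr11:113773821-113773850, reverse strand: tcccatctcgggATTGGcgcggtgcctgct
SKA2 CCAAT match at −85, chr17:59155254-59155283, reverse strand: ggaacggaggagCCAATgagtgcgagatgt
CENPA CHR match at −18, chr2:26786026-26786055, forward strand: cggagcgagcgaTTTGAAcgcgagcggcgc
CENPA CCAAT match at −130, chr2:26785914-26785943, forward strand: gtgcatactctcATTGGccctacctgcagt
CENPA E2F match at −232, chr2:26785813-26785842, forward strand: gggcaggagaaTTTCCCGCcccatctcttt
CDCA8 CHR match at −23, chr1:37692481-37692510, forward strand: gtgactgtggagTTTGAAttgggtggcggt
CDCA8 CCAAT match at −75, chr1:37692429-37692458, forward strand: aacttgcttgtgATTGGatgttgtgggacg
CENPQ CCAAT match at −84, chr6:49463274-49463303, forward strand: ccctccctccagCCAATctaatagcgctct

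The CHR match of CDCA8 shares its last base with a further CCAAT match on the other strand, at −18. MIS12 held an E2F match, CCAAT matches and no CHR match in this window, and SKA2 held CCAAT matches alone. Across the module, a CHR match was present in 20 of the 36 promoters (55.6%), against 16.6% of all 27305 promoters of the same length. A CCAAT match was present in 25 (69.4%, all promoters 35.7%), an E2F match in 4 (11.1%, all promoters 3.33%), and CHR and CCAAT matches together in 16 (44.4%, all promoters 6.58%). Of the members called higher in 769-P cells with the block, 6 of the 8 with a promoter held a CHR match, as did 1 of the 5 called lower. For the CCAAT match these counts were 7 of 8 and 4 of 5, and for the E2F match 1 of 8 and 1 of 5. With numbers this small the shares are a description of these promoters alone.

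The CENP-A group held a member that was higher and a member that was lower. CENPA (ENSG00000115163, chr2:26764289-26801067 of GRCh38, forward strand) encodes the histone H3 variant of centromeric nucleosomes. In 769-P cells, CENPA was at 13.5, 13 and 11 FPKM under si-NUF2 (12.5 ± 1.32, SD, n = 3), whereas the si-NC libraries were at 8.63, 8.84 and 6.93 FPKM (8.13 ± 1.05). In ACHN cells, CENPA was at 13.4, 26.4 and 18.6 FPKM under si-NUF2 (19.5 ± 6.52) and at 8.77, 17.1 and 13.3 FPKM under si-NC (13 ± 4.16). The groups were apart in 769-P cells and overlapped in ACHN cells, where replicate 1 was the lowest and replicate 2 the highest library of both siRNAs. The differences of CENPA within same-numbered pairs were 0.63, 0.55 and 0.65 for 769-P cells, and those for ACHN cells were 0.61, 0.62 and 0.48. CENPA rose by 0.62 in 769-P cells (SE 0.124, limma adjusted p = 0.0273, called under 12 of the 18 alternatives, up to 0.243). Its log2 fold change in ACHN cells was 0.59 (SE 0.326, limma adjusted p = 0.756), which was called with the block (SE 0.051, limma adjusted p = 0.0122, 0.000193 to 0.977 over the 18 alternatives).

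MIS18A (ENSG00000159055, chr21:32268219-32279069, reverse strand) belongs to the complex that licenses centromeres for new CENP-A. In 769-P cells, MIS18A was at 15, 12.2 and 11.3 FPKM under si-NUF2 (12.8 ± 1.94) and at 21.1, 18.3 and 21.5 FPKM under si-NC (20.3 ± 1.73). In ACHN cells, MIS18A was at 9.33, 9.89 and 11.5 FPKM under si-NUF2 and at 10.9, 11.4 and 12.4 FPKM under si-NC. Every 769-P library under si-NUF2 was below every control library, whereas the ACHN groups overlapped. MIS18A fell by 0.66 in 769-P cells (SE 0.123, limma adjusted p = 0.0234, called under 12 of the 18 alternatives, up to 0.0811), to 63.2% of the control mean, and its log2 fold change in ACHN cells was −0.16 (SE 0.115, limma adjusted p = 0.844). The ratio of CENPA to MIS18A in 769-P cells was 0.896, 1.06 and 0.970 under si-NUF2 and 0.410, 0.482 and 0.322 under si-NC. In ACHN cells this ratio was 1.44, 2.67 and 1.62 against 0.805, 1.5 and 1.07, so that the groups overlapped there. The remaining members of this group were not called in either line. HJURP, the chaperone that deposits CENP-A, was at 0.12 and 0.14 on the log2 scale in 769-P and ACHN cells, and OIP5, a partner of MIS18A, had −0.21 and 0.12.

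The inner kinetochore network had 13 members, of which CENPM alone was called without the block, in 769-P cells. The median log2 fold change of the group was −0.02 in 769-P cells, with 6 members above 0 and 7 below. In ACHN cells it was 0.23, and all 12 tested members were above 0, against 51.2% of all genes. CENPM (ENSG00000100162, chr22:41938721-41947164, reverse strand) is part of the subcomplex with CENPH, CENPI and CENPK. In 769-P cells, CENPM was at 14.6, 13.2 and 12.5 FPKM under si-NUF2 (13.4 ± 1.06) and at 20.2, 17.3 and 16.7 FPKM under si-NC (18.1 ± 1.90). In ACHN cells, CENPM was at 9.97, 14.7 and 12.6 FPKM under si-NUF2 (12.4 ± 2.39) and at 8.46, 11.6 and 10.4 FPKM under si-NC (10.2 ± 1.60). All 3 pairs were lower in 769-P cells (−0.47, −0.39 and −0.41), and all 3 were higher in ACHN cells (0.23, 0.34 and 0.28). CENPM fell by 0.41 in 769-P cells (SE 0.102, limma adjusted p = 0.048, called under 9 of the 18 alternatives, up to 0.19). In ACHN cells the log2 fold change of CENPM was 0.30 (SE 0.186, limma adjusted p = 0.797), which was called with the block (limma adjusted p = 0.0263, 0.0137 to 0.993 over the 18 alternatives).

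CENPQ (ENSG00000031691, chr6:49463378-49493107, forward strand) and CENPO (ENSG00000138092, chr2:24793136-24822376, forward strand) belong to the subcomplex with CENPP and CENPU. In 769-P cells, CENPQ was at 10 FPKM in each si-NUF2 library and at 11.4, 13 and 14.3 FPKM under si-NC. In ACHN cells, CENPQ was at 4.89, 4.92 and 6.06 FPKM under si-NUF2 and at 4.17, 4.01 and 6.07 FPKM under si-NC. The groups were apart in 769-P cells, where the log2 fold change of CENPQ was −0.35 (SE 0.0912, limma adjusted p = 0.0571) and was called with the block (limma adjusted p = 0.0267, 0.00644 to 0.264 over the 18 alternatives). In ACHN cells the groups of CENPQ overlapped, with a log2 fold change of 0.19 (SE 0.190, limma adjusted p = 0.932). CENPO was at 5.90, 5.20 and 4.89 FPKM under si-NUF2 and at 6.05, 5.24 and 5.04 FPKM under si-NC in 769-P cells, a log2 fold change of −0.02. CENPO in ACHN cells was at 4.81, 5.34 and 6.34 FPKM under si-NUF2 and at 3.68, 4.11 and 5.08 FPKM under si-NC, so that the groups overlapped while each pair was higher. The ACHN log2 fold change of CENPO was 0.37 (SE 0.165, limma adjusted p = 0.640), called with the block (limma adjusted p = 0.0243, 0.00292 to 0.977 over the 18 alternatives).

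Of the other inner kinetochore members, CENPH and CENPL were called higher with the block in 769-P cells, where their log2 fold changes were 0.24 (limma adjusted p = 0.112, 0.0233 with the block, 0.00541 to 0.245 over the alternatives) and 0.31 (limma adjusted p = 0.0621, 0.0202 with the block, 0.00359 to 0.326 over the alternatives). In ACHN cells CENPH had a log2 fold change of 0.24 and CENPL of 0.35, and neither was called. CENPL, with CENPN, contacts the CENP-A nucleosome. CENPC, the scaffold between CENP-A and the MIS12 complex, had changes of 0.04 and 0.03 (log2) in 769-P and ACHN cells, and CENPT, the other arm that reaches the outer kinetochore, had −0.03 and 0.09. CENPI, CENPK, CENPN, CENPU and CENPW were not called in either line, and their log2 fold changes were 0.06, −0.09, −0.16, 0.01 and 0.14 in 769-P cells against 0.27, 0.19, 0.11, 0.25 and 0.22 in ACHN cells. CENPP was at 0.550 to 0.797 FPKM under si-NUF2 in 769-P cells and had a log2 fold change of −0.17 there. The scaffolds that bridge chromatin and the outer kinetochore thus had fold changes below their standard errors in the fit without the block.

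**Figure D2:**
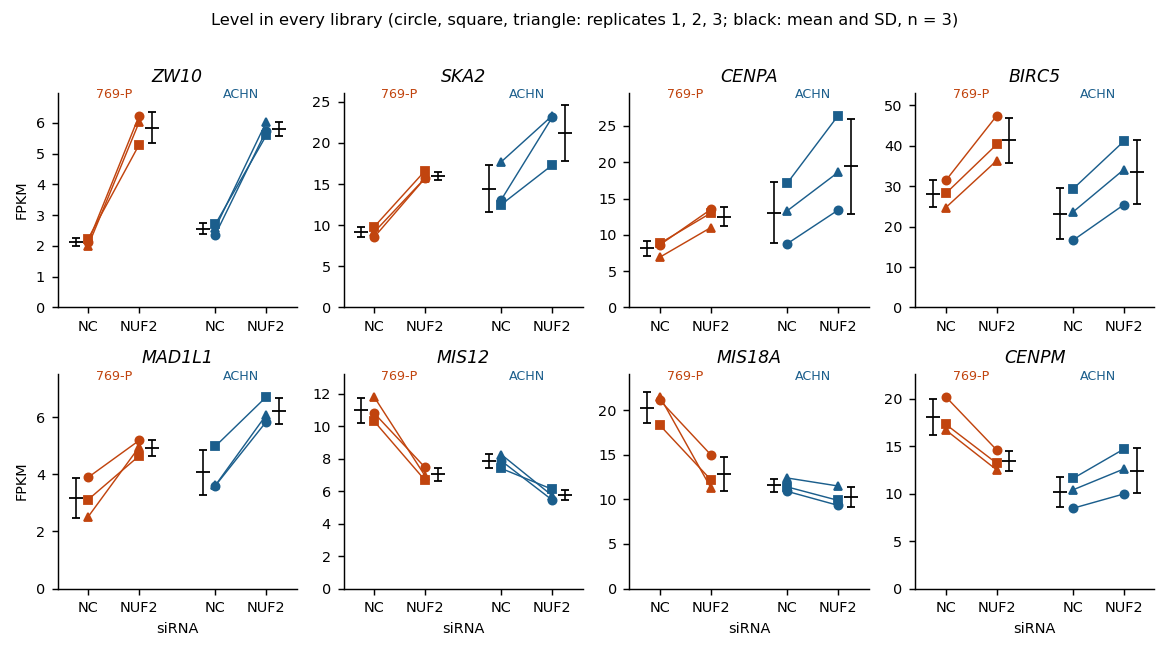
FPKM of 8 members in every library of 769-P (orange) and ACHN cells (blue), with lines joining libraries of the same replicate number and black marks for the mean and SD (n = 3). ZW10, SKA2, CENPA, BIRC5 and MAD1L1 slope up in both lines, MIS12 slopes down in both, and CENPM slopes down in 769-P and up in ACHN cells.

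Within the MIS12 complex, which joins the inner kinetochore to NDC80, the subunits did not move together. MIS12 (ENSG00000167842, chr17:5486285-5490814, forward strand) was at 7.46, 6.67 and 6.94 FPKM under si-NUF2 (7.02 ± 0.400) and at 10.8, 10.3 and 11.8 FPKM under si-NC (11 ± 0.758) in 769-P cells. In ACHN cells, MIS12 was at 5.45, 6.11 and 5.72 FPKM under si-NUF2 (5.76 ± 0.332) and at 7.86, 7.39 and 8.25 FPKM under si-NC (7.83 ± 0.430). It was the one member for which every si-NUF2 library lay below every control library in both lines. MIS12 fell by 0.63 in 769-P cells (SE 0.0847, limma adjusted p = 0.0103) and was called there under all 18 alternatives. In ACHN cells the log2 fold change of MIS12 was −0.42 (SE 0.0955, limma adjusted p = 0.311), which was called with the block (limma adjusted p = 0.0288, 0.00259 to 0.827 over the 18 alternatives). Exons of DERL2 on the other strand cover 9.5% of the exon length of MIS12.

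DSN1 (ENSG00000149636, chr20:36751791-36773818, reverse strand), the subunit that Aurora B phosphorylates, behaved differently. In 769-P cells, DSN1 was at 12.4, 10.5 and 12.8 FPKM under si-NUF2 and at 12.6, 10.7 and 13 FPKM under si-NC, a difference of −0.02 in each pair. In ACHN cells, DSN1 was at 6.54, 5.41 and 6 FPKM under si-NUF2 (5.98 ± 0.566) and at 3.85, 4.25 and 4.65 FPKM under si-NC (4.25 ± 0.400). The groups were apart in ACHN cells, where the log2 fold change of DSN1 was 0.50 (SE 0.124, limma adjusted p = 0.353) and was called with the block (limma adjusted p = 0.0424, 0.00518 to 0.871 over the 18 alternatives). The ratio of MIS12 to DSN1 was 0.599, 0.633 and 0.541 under si-NUF2 and 0.859, 0.969 and 0.907 under si-NC in 769-P cells. In ACHN cells this ratio was 0.833, 1.13 and 0.954 against 2.04, 1.74 and 1.77. In both lines the MIS12 to DSN1 ratio was therefore below all control values in each si-NUF2 library, which restates the values above. Ratios of MIS12 to NSL1 or PMF1 were not formed.

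NSL1 (ENSG00000117697, chr1:212726153-212791782, reverse strand) was at 13.2, 11.4 and 13.3 FPKM under si-NUF2 and at 15.3, 14.0 and 16.8 FPKM under si-NC in 769-P cells. NSL1 in ACHN cells was at 7.72, 8.59 and 8.53 FPKM under si-NUF2 and at 8.03, 8.88 and 9.47 FPKM under si-NC. PMF1 (ENSG00000160783, chr1:156212993-156240042, forward strand) was at 8.18, 8.61 and 8.71 FPKM under si-NUF2 and at 9.88, 10.2 and 9.46 FPKM under si-NC in 769-P cells. Both subunits were lower in every 769-P library under si-NUF2. PMF1 in ACHN cells was at 6.57, 6.99 and 6.87 FPKM under si-NUF2 and at 7.60, 6.80 and 7.39 FPKM under si-NC. The log2 fold change of NSL1 in 769-P cells was −0.27 (SE 0.0999, limma adjusted p = 0.137), called with the block (limma adjusted p = 0.0176, 0.0035 to 0.317 over the 18 alternatives). That of PMF1 was −0.20 (SE 0.0701, limma adjusted p = 0.117) and was not called with the block (limma adjusted p = 0.0518, 0.0363 to 0.286 over the 18 alternatives). In ACHN cells both were at −0.07. PMF1 shares 23.3% of its exon length with the read-through gene PMF1-BGLAP on the same strand, so its count is uncertain.

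KNL1, the scaffold on which BUB1 and BUB3 dock, had log2 fold changes of −0.08 (769-P) and 0.23 (ACHN) and was not called. ZWINT, its partner, was at 56.3 ± 8.45 FPKM under si-NUF2 and 42.7 ± 4.79 FPKM under si-NC in 769-P cells (n = 3 each), with groups that did not overlap. In ACHN cells, ZWINT was at 39.4 ± 2.22 and 28.1 ± 5.48 FPKM, again with groups apart. Its log2 fold changes were 0.40 (limma adjusted p = 0.096, 0.00664 with the block, 0.00015 to 0.233 over the alternatives) and 0.52 (limma adjusted p = 0.453, 0.0365 with the block, 0.00128 to 0.932 over the alternatives).

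Among the spindle checkpoint genes, MAD1L1 was called higher in 769-P cells without the block. MAD1L1 (ENSG00000002822, chr7:1815793-2233243, reverse strand) encodes MAD1, which holds MAD2 at unattached kinetochores. In 769-P cells, MAD1L1 was at 5.19, 4.65 and 4.96 FPKM under si-NUF2 (4.93 ± 0.271) and at 3.90, 3.12 and 2.52 FPKM under si-NC (3.18 ± 0.691). In ACHN cells, MAD1L1 was at 5.85, 6.72 and 6.09 FPKM under si-NUF2 (6.22 ± 0.448) and at 3.61, 4.99 and 3.62 FPKM under si-NC (4.07 ± 0.796). All si-NUF2 libraries of a line lay above all its control libraries. MAD1L1 rose by 0.65 in 769-P cells (SE 0.156, limma adjusted p = 0.0462, called under 10 of the 18 alternatives, up to 0.132). Its log2 fold change in ACHN cells was 0.63 (SE 0.156, limma adjusted p = 0.353), called with the block (limma adjusted p = 0.0199, 0.0003 to 0.837 over the 18 alternatives).

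MAD2L1 (ENSG00000164109, chr4:120055608-120067074, reverse strand) encodes MAD2, the protein that MAD1 anchors and that closes on CDC20. In 769-P cells, MAD2L1 was at 25.7, 22.2 and 18.8 FPKM under si-NUF2 and at 28.0, 25.6 and 26.7 FPKM under si-NC. In ACHN cells, MAD2L1 was at 7.65, 7.94 and 8.60 FPKM under si-NUF2 and at 6.83, 7.89 and 7.96 FPKM under si-NC. The groups overlapped in both lines, and the log2 fold changes were −0.27 (SE 0.116, limma adjusted p = 0.191) and 0.11 (SE 0.107, limma adjusted p = 0.920). The ratio of MAD1L1 to MAD2L1 was 0.202, 0.209 and 0.263 under si-NUF2 and 0.140, 0.122 and 0.0945 under si-NC in 769-P cells. In ACHN cells the ratio was 0.764, 0.846 and 0.708 against 0.528, 0.633 and 0.455. The MAD1L1 to MAD2L1 ratio was higher in each si-NUF2 library than in any control library of its line.

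BUB1 (ENSG00000169679, chr2:110637698-110678114, reverse strand) encodes the kinase that marks centromeres for the shugoshins and recruits BUB1B. In 769-P cells, BUB1 was at 19.9, 16.5 and 16.7 FPKM under si-NUF2 and at 16.6, 14.6 and 15.3 FPKM under si-NC. In ACHN cells, BUB1 was at 20.8, 22.2 and 23.4 FPKM under si-NUF2 (22.1 ± 1.33) and at 14.8, 15.5 and 18.3 FPKM under si-NC (16.2 ± 1.83). The groups of BUB1 were apart in ACHN cells and overlapped narrowly in 769-P cells. In 769-P cells the log2 fold change of BUB1 was 0.20 (SE 0.0983, limma adjusted p = 0.249, 0.0404 with the block, 0.0104 to 0.508 over the alternatives). In ACHN cells it was 0.47 (SE 0.114, limma adjusted p = 0.347, 0.0158 with the block, 0.000231 to 0.871 over the alternatives). BUB1B, which with BUB3, MAD2 and CDC20 forms the checkpoint complex, had log2 fold changes of 0.08 (769-P) and 0.30 (ACHN), the latter called with the block (limma adjusted p = 0.0321, 0.00611 to 0.972 over the alternatives). CDC20 was the most abundant member at 99.1 ± 17.1 FPKM under si-NC in 769-P cells. It had log2 fold changes of −0.02 (769-P) and 0.20 (ACHN), the latter called with the block (limma adjusted p = 0.0406, 0.0218 to 0.999 over the alternatives). BUB3 and the kinase gene TTK had −0.10 and −0.06 in 769-P cells, against 0.10 and 0.12 in ACHN cells, with no call.

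ZW10 had the highest log2 fold change of the module in both lines, and its partners in the RZZ complex did not follow it. ZW10 (ENSG00000086827, chr11:113733187-113773811, reverse strand) encodes a subunit of the complex that brings dynein and MAD1 to kinetochores, and which in interphase acts in membrane traffic. In 769-P cells, ZW10 was at 6.23, 5.29 and 6.02 FPKM under si-NUF2 (5.85 ± 0.496) and at 2.13, 2.24 and 2.01 FPKM under si-NC (2.13 ± 0.114), a mean of 275% of control. In ACHN cells, ZW10 was at 5.75, 5.59 and 6.03 FPKM under si-NUF2 (5.79 ± 0.223) and at 2.37, 2.71 and 2.59 FPKM under si-NC (2.56 ± 0.168), or 226%. The groups were far apart in both lines, with between 188 and 629 reads behind each value. ZW10 rose by 1.42 in 769-P cells (SE 0.0985, limma adjusted p = 0.00268) and was called under all 18 alternatives. In ACHN cells its log2 fold change was 1.17 (SE 0.102, limma adjusted p = 0.110), called with the block (limma adjusted p = 0.0116, 2.68e-05 to 0.715 over the 18 alternatives).

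ZWILCH, another RZZ subunit, had log2 fold changes of −0.21 in 769-P cells (limma adjusted p = 0.335, 0.0414 with the block, 0.0164 to 0.634 over the alternatives) and −0.01 in ACHN cells. KNTC1, which encodes the subunit ROD, had −0.06 and 0.18 and was not called. The ratio of ZW10 to ZWILCH was 0.509, 0.522 and 0.544 under si-NUF2 and 0.144, 0.203 and 0.152 under si-NC in 769-P cells. In ACHN cells it was 0.761, 0.677 and 0.696 against 0.320, 0.322 and 0.285. Against KNTC1, ZW10 was at 0.857 to 0.986 under si-NUF2 and 0.294 to 0.377 under si-NC in 769-P cells, and at 0.499 to 0.777 and 0.234 to 0.399 in ACHN cells. The RNA of ZW10 was thus higher relative to both partners in every si-NUF2 library. SPDL1, which encodes the dynein adaptor Spindly, was at 46.8 ± 8.84 FPKM under si-NUF2 and 34.4 ± 6.95 FPKM under si-NC in 769-P cells. The SPDL1 log2 fold change of 0.45 was called with the block (limma adjusted p = 0.165 without, 0.00682 with the block, 9.24e-05 to 0.659 over the alternatives). SPDL1 varied most between ACHN controls, at 8.28, 28.3 and 17 FPKM, and had a log2 fold change of 0.28 there (SE 0.518).

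The motor and corona genes CENPE and CENPF differed from each other. CENPF (ENSG00000117724, chr1:214603195-214664588, forward strand) encodes a large coiled-coil protein of the outermost layer. In 769-P cells, CENPF was at 31.5, 34.9 and 32.2 FPKM under si-NUF2 (32.9 ± 1.77) and at 27.9, 26.1 and 23.2 FPKM under si-NC (25.7 ± 2.36). In ACHN cells, CENPF was at 21.8, 29.6 and 28.8 FPKM under si-NUF2 (26.7 ± 4.25) and at 14.5, 24.0 and 22.2 FPKM under si-NC (20.2 ± 5.03). The 769-P groups were apart and the ACHN groups overlapped, under si-NUF2 higher in every pair. CENPF rose by 0.36 in 769-P cells (SE 0.087, limma adjusted p = 0.0453, called under 9 of the 18 alternatives, up to 0.326). The ACHN log2 fold change of CENPF was 0.44 (SE 0.226, limma adjusted p = 0.722), called with the block (limma adjusted p = 0.0276, 0.000699 to 0.982 over the 18 alternatives). CENPE, a kinesin that carries chromosomes to the spindle equator, had log2 fold changes of 0.04 and 0.06 and was not called.

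Of the SKA complex, which follows the ends of shortening microtubules together with NDC80, SKA2 was higher and SKA1 and SKA3 were not called. SKA2 (ENSG00000182628, chr17:59109951-59155269, reverse strand) was at 15.7, 16.6 and 15.7 FPKM under si-NUF2 (16.0 ± 0.528) and at 8.53, 9.79 and 9.15 FPKM under si-NC (9.16 ± 0.627) in 769-P cells. In ACHN cells, SKA2 was at 23.1, 17.3 and 23.3 FPKM under si-NUF2 (21.2 ± 3.40) and at 13.1, 12.5 and 17.7 FPKM under si-NC (14.4 ± 2.82). The ACHN groups overlapped, under si-NC replicate 3 above si-NUF2 replicate 2. SKA2 rose by 0.81 in 769-P cells (SE 0.0751, limma adjusted p = 0.0039) and was called under all 18 alternatives. For ACHN cells the log2 fold change of SKA2 was 0.58 (SE 0.187, limma adjusted p = 0.469), called with the block (limma adjusted p = 0.0275, 0.000588 to 0.936 over the 18 alternatives). The log2 fold changes of SKA1 were −0.06 and 0.08, and those of SKA3 were −0.22 and 0.12. The ratio of SKA2 to SKA1 was 1.70 to 2.67 under si-NUF2 and 1.05 to 1.42 under si-NC in 769-P cells, and 3.02 to 4.58 against 2.29 to 2.67 in ACHN cells. Against SKA3, SKA2 was at 1.03 to 1.72 under si-NUF2 and 0.565 to 0.795 under si-NC in 769-P cells, whereas the groups overlapped in ACHN cells (4.39, 2.58 and 3.75 against 2.63, 2.23 and 2.76).

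The chromosomal passenger complex, whose kinase releases faulty attachments, also showed unequal responses of its subunits. BIRC5, which encodes survivin, the subunit that reads a histone mark at centromeres, was at 41.4 ± 5.59 FPKM under si-NUF2 and 28.1 ± 3.35 FPKM under si-NC in 769-P cells. In ACHN cells, BIRC5 was at 33.6 ± 7.86 and 23.2 ± 6.39 FPKM. The groups were apart in 769-P cells and overlapped in ACHN cells, and the pair differences were 0.59, 0.51 and 0.56 for 769-P, against 0.62, 0.49 and 0.53 for ACHN cells. BIRC5 rose by 0.56 in 769-P cells (SE 0.127, limma adjusted p = 0.0377, called under 11 of the 18 alternatives, up to 0.2). Its log2 fold change in ACHN cells was 0.56 as well (SE 0.262, limma adjusted p = 0.670), called with the block (limma adjusted p = 0.0122, 7.99e-05 to 0.967 over the 18 alternatives).

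CDCA8 (ENSG00000134690, chr1:37692418-37709719, forward strand) encodes borealin, which binds survivin and INCENP. In 769-P cells, CDCA8 was at 21.4, 22.7 and 21.8 FPKM under si-NUF2 (21.9 ± 0.652) and at 27.4, 26.2 and 27.5 FPKM under si-NC (27.0 ± 0.737). In ACHN cells, CDCA8 was at 11.9, 17.7 and 17.7 FPKM under si-NUF2 and at 11.1, 17 and 16.4 FPKM under si-NC. The 769-P groups were apart, and the ACHN groups overlapped. CDCA8 fell by 0.29 in 769-P cells (SE 0.0617, limma adjusted p = 0.033, called under 9 of the 18 alternatives, up to 0.451), and its log2 fold change in ACHN cells was 0.10 (SE 0.231, limma adjusted p = 0.990). The ratio of BIRC5 to CDCA8 was 2.22, 1.78 and 1.67 under si-NUF2 and 1.15, 1.08 and 0.897 under si-NC in 769-P cells. In ACHN cells it was 2.14, 2.33 and 1.93 against 1.49, 1.73 and 1.44. In both lines survivin RNA was higher relative to borealin RNA in every si-NUF2 library.

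AURKB (ENSG00000178999, chr17:8204733-8210600, reverse strand) encodes the kinase of the complex. In 769-P cells, AURKB was at 46.1, 38.3 and 37.5 FPKM under si-NUF2 and at 49.0, 39.9 and 41.0 FPKM under si-NC. In ACHN cells, AURKB was at 41.7, 41.7 and 48.7 FPKM under si-NUF2 (44.0 ± 4.02) and at 36.2, 37.5 and 40.3 FPKM under si-NC (38.0 ± 2.12). The groups were apart in ACHN cells and overlapped in 769-P cells. The log2 fold change of AURKB was −0.08 in 769-P cells (SE 0.115, limma adjusted p = 0.689). In ACHN cells it was 0.23 (SE 0.104, limma adjusted p = 0.658), called with the block (limma adjusted p = 0.0406, 0.0149 to 0.983 over the 18 alternatives). INCENP, the scaffold that activates AURKB, had log2 fold changes of 0.18 (769-P) and 0.28 (ACHN), the latter called with the block (limma adjusted p = 0.0423, 0.00918 to 0.999 over the alternatives). SGO1 and SGO2, the shugoshins that protect cohesin at centromeres, had −0.23 and −0.12 in 769-P cells, against 0.09 and 0.16 in ACHN cells, with no call.

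The lines were then compared in their response. Of the 44 members tested in both, 10 were called in both lines with the block, which was 55.6% of the 769-P calls and 62.5% of the ACHN calls. For all genes tested in both lines these shares were 30.8% and 66.1%. The 8 called higher in both were CENPA, ZWINT, BUB1, MAD1L1, ZW10, CENPF, SKA2 and BIRC5, MIS12 was called lower in both, and CENPM was called in opposite directions. A further 8 members were called in 769-P cells alone, 6 in ACHN cells alone and 20 in neither, which by itself does not show that the lines differed. By sign, 19 members were above 0 in both lines, 5 were below 0 in both, and 20 were below 0 in 769-P and above 0 in ACHN cells.

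The test of the difference itself, an siRNA by cell line interaction fitted to all 12 libraries, called 0 of the 45 members without the block (background 0%, lowest limma adjusted p = 0.925). Limma-voom without the block also called 0, and 5 members had an unadjusted p under 0.05 (11.1%, background 4.66%). With the block, 3 members were called (6.67%, background 1.39%), all lower in 769-P than in ACHN cells. These were CENPM, CDCA8 and AURKB. The median difference between the lines, 769-P minus ACHN, was −0.20 over the members and 0.00 over all genes. Of the 45 members, 37 were below 0 and 8 above (17.8%, all genes 49.1%). ZW10, SKA2, CENPA, MAD1L1 and BIRC5 were not among the members called different, which does not show that they responded alike.

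**Figure D3:**
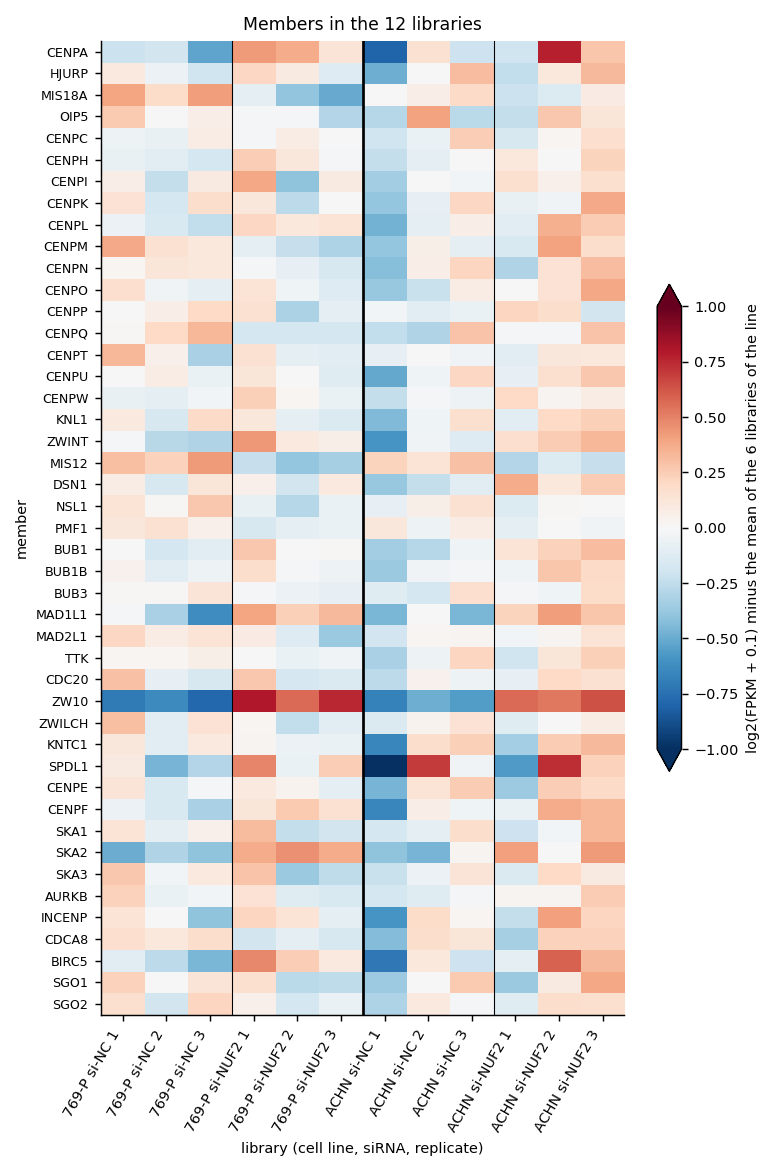
Level of each member (rows) in the 12 libraries (columns), as log2(FPKM + 0.1) minus the mean of the 6 libraries of that cell line, with colours limited to −1 and 1. The column of ACHN si-NC replicate 1 is blue for most members, and the ZW10 row changes from blue to red between si-NC and si-NUF2 in both lines.

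Replicates differed across the whole module. In ACHN cells replicate 1 was the lowest of the 3 si-NC libraries for 39 of the 44 members, and for 33.6% of all genes. It was the lowest si-NUF2 library for 37 members, and for 35.5% of all genes. The summed FPKM of the members was 418, 545 and 548 in the si-NC libraries and 519, 629 and 635 in the si-NUF2 libraries of ACHN cells, so that replicate 1 of each siRNA stood below the other two. In 769-P cells the sums were 786, 689 and 696 under si-NC and 840, 716 and 705 under si-NUF2. There si-NUF2 replicate 1 was the highest library for 38 of the 45 members, and for 37.6% of all genes. The part of this shared shift in the results without the block was not tested beyond the fits that leave libraries out. Between replicates, the median SD of a member on the log2 scale was 0.135 and 0.133 in 769-P cells (si-NUF2 and si-NC) and 0.175 and 0.231 in ACHN cells. The median standard error of a member's fold change went from 0.111 to 0.0606 with the block in 769-P cells and from 0.168 to 0.0652 in ACHN cells.

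Before any knockdown effect, the module stood higher in 769-P than in ACHN cells. Between the si-NC libraries of the lines, 24 of the 45 members were called (53.3%, background 61.4% of all genes), 23 of them higher in 769-P (51.1% of members, background 31.9%) and 1 lower (2.22%, background 29.6%). The median log2 difference, 769-P minus ACHN, was 0.51 over the members and 0.03 over all genes. The difference was highest for MAD2L1, at 26.8 FPKM in 769-P and 7.56 FPKM in ACHN cells (log2 difference 1.84, SE 0.0994, limma adjusted p = 1.62e-05). DSN1 came next, at 12.1 and 4.25 FPKM (1.51, SE 0.127, limma adjusted p = 9.16e-05). SKA2 was the member called lower in 769-P cells, at 9.16 against 14.4 FPKM (−0.61, SE 0.152, limma adjusted p = 0.0121), and CENPA had a like difference with overlapping groups (−0.60, SE 0.244, limma adjusted p = 0.0682). By role, 8 of the 13 inner kinetochore members, 5 of the 6 of the KNL1 and MIS12 complexes, 4 of the 7 checkpoint genes, 2 of the 4 CENP-A genes and 2 of the 3 SKA genes were called higher in 769-P cells. The count was 1 of 4 for the RZZ complex and Spindly, 0 of 2 for CENPE and CENPF and 1 of 6 for the passenger complex and shugoshins. ZW10 stood at 2.13 and 2.56 FPKM in 769-P and ACHN cells and was not called (−0.22, SE 0.126). Cell line and culture medium cannot be told apart in this comparison.

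**Figure D4:**
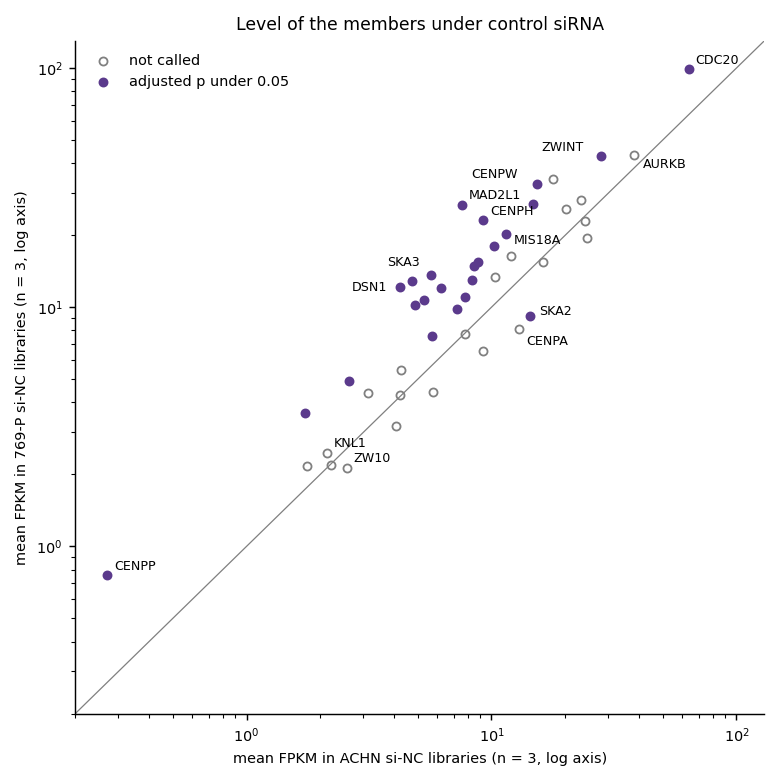
Mean FPKM of each member under si-NC in ACHN (horizontal) and 769-P cells (vertical), both on log axes (n = 3 per mean), with the line of equal levels. Filled points had an adjusted p under 0.05. Most filled points lie above the line, MAD2L1 (26.8 against 7.56 FPKM) and DSN1 (12.1 against 4.25 FPKM) farthest, and SKA2 is the filled point below it.

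Neighbouring genes of the same machinery gave a comparison. Of the NDC80 complex, NUF2 was called lower in 769-P cells and, with the block, in ACHN cells, and NDC80, SPC24 and SPC25 were called in neither line, and their log2 fold changes were 0.21, −0.20 and −0.20 for 769-P, against 0.21, 0.14 and 0.23 for ACHN cells. Among 17 other centromere and kinetochore genes, RCC2 was called higher in 769-P cells (0.43, limma adjusted p = 0.013), where 5.29% of all genes were. The median was −0.01 in 769-P and 0.20 in ACHN cells. With the block RCC2 and BOD1 were called higher in both lines, and CENPX was called lower in 769-P cells. That was 2 of 17 higher and 1 of 17 lower in 769-P cells (background 13.6% and 14%). In ACHN cells it was 2 higher and 0 lower (background 7.14% and 5.05%). BOD1, which regulates phosphatases at kinetochores, had the lowest p of this list in ACHN cells (0.30, limma adjusted p = 0.446, 0.0438 with the block) and was at 0.27 (log2) in 769-P cells (limma adjusted p = 0.0654, 0.0341 with the block).

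Cell cycle genes outside the module were summarised in the same way. The 12 genes of G2/M had a median of −0.08 (769-P) and 0.15 (ACHN), with 0 called without the block in either line (background 10% and 0%). With the block, CCNB2 and TPX2 were called higher and CCNA2 and PLK1 lower in 769-P cells (background 13.6% and 14%). In ACHN cells TPX2 and UBE2C were called higher with the block (2 of 12, background 7.14%). MKI67, a proliferation marker, was at 24.6 and 26.5 FPKM under si-NUF2 and si-NC in 769-P cells (log2 fold change −0.10) and at 26.8 and 25.5 FPKM in ACHN cells (0.10). CCNB1, the cyclin of mitotic entry, had log2 fold changes of 0.13 and 0.16. The 12 genes of G1/S had a median of −0.01 in 769-P cells, with 6 above 0 and 6 below. With the block MCM3 and TYMS were called higher (2 of 12, background 13.6%) and CCNE2 and RRM2 lower (2 of 12, background 14%) there. In ACHN cells their median was 0.44, with all 12 above 0 (all genes 51.2%), from 0.20 to 0.60. Of the 12, 5 were called higher in ACHN cells with the block (background 7.14%), namely MCM3, MCM4, MCM5, MCM7 and TYMS. CDC6 had the lowest p there without the block (0.46, limma adjusted p = 0.394). The medians of the module and of the G1/S genes were thus both above 0 in ACHN cells, and the part of the latter in the former was not tested.

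Of 12 regulators of these genes, RBBP4, a subunit of the MuvB complex, was called higher in 769-P cells (0.32, limma adjusted p = 0.0266) and, with the block, in ACHN cells (0.34, limma adjusted p = 0.446, 0.0276 with the block). With the block, 2 of 12 were called higher and 2 lower in 769-P cells (background 13.6% and 14%). In ACHN cells 2 of 11 tested were called higher and 1 lower (background 7.14% and 5.05%). LIN54, another MuvB subunit, and TFDP1, the partner of E2F proteins, were called lower with the block in 769-P cells (−0.29 and −0.35, limma adjusted p = 0.0302 and 0.0351, against 0.076 and 0.174 without). FOXM1, the activator of G2/M genes, had log2 fold changes of −0.10 (769-P) and 0.10 (ACHN), and MYBL2, its partner on CHR promoters, had 0.24 and 0.51, both called with the block (limma adjusted p = 0.0196 and 0.0337, against 0.401 and 0.548 without). CDKN1A, which encodes p21, an inhibitor upstream of the repression of these promoters, was at 178 and 192 FPKM under si-NUF2 and si-NC in 769-P cells (−0.10, limma adjusted p = 0.456). In ACHN cells CDKN1A was at 100 and 178 FPKM (−0.78, SE 0.438, limma adjusted p = 0.766), which was called lower with the block (limma adjusted p = 0.0189).

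How the counting treated strand is not given in the sources used here, and some members share exons with other genes. On the opposite strand, IPPK covers 38.0% of the exon length of CENPP, OIP5-AS1 covers 38.0% of OIP5, ADCY3 covers 27.0% of CENPO and SGO1-AS1 covers 17.7% of SGO1, so that the values of these members are uncertain. To a lesser degree this also holds for CENPN (CMC2, 12.8%), CENPU (PRIMPOL, 11.7%) and CENPT (TSNAXIP1, 10.8%). Any further gene on the opposite strand covered 9.5% or less of a member. On the same strand, BUB1B-PAK6 covers 10.2% of BUB1B and SLC35F6 covers 7.0% of CENPA, so that these values are uncertain whatever the strand setting. None of ZW10, SKA2, MAD1L1, MIS18A or BIRC5 shared exons with an annotated gene.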

How the data were processed

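RNA of 769-P and ACHN cells was sequenced 48 h after transfection (12 libraries, 3 per group). The FPKM the authors deposited hold 1 value per gene and library. Per the submitters' processing notes, HISAT2 2.0.5, featureCounts 1.5.0-p3 and hg38 were used, and reads were filtered with fastp according to the study's methods. The strand setting, the annotation release and the scaling behind the FPKM are not given in the sources used here. The files hold FPKM where a count test had also been foreseen, so limma was used.

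FPKM were scaled within each fit by a trimmed mean of log ratios (30% of the log ratios and 5% of the levels trimmed), and log2(FPKM + 0.1) was fitted with limma 3.58.1 (lmFit, eBayes with trend) in R 4.3.3 for genes that reached a scaled FPKM of 0.5 in 3 or more libraries. Benjamini-Hochberg adjustment ran over all genes tested, with a threshold of 0.05. Each line was fitted alone; the interaction used all 12 libraries and the control comparison the 6 si-NC libraries. Whether cultures were separate is not stated, so p-values measure the spread between these libraries, which may be technical.

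Replicate numbers come from the labels. Libraries with the same number deviated from their group means with correlations of 0.355, 0.276 and 0.19 for 769-P, against 0.648, 0.735 and 0.46 for ACHN cells, above the limit of 0.1 for pairing. Between the si-NC libraries of the lines the correlations were −0.055, −0.015 and 0.043.

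Exon lengths and coordinates come from GENCODE release 29 (GRCh38). With these lengths, 95.6% of the values above 0 were whole reads within 0.05 read, which gave the depth and the reads for limma-voom. Libraries of a group were not copies of each other (chi-square per gene at least 14.337). Simulated data had 200 genes changed by 1 on the log2 scale, with replicate effects and residual spread as fitted with the block. The fit without the block recovered 72.5% in 769-P (14160 genes) and 38% in ACHN cells (15116 genes), with 0% and 1.3% of the calls false. The fit with the block recovered 97% and 95.5%, with 8.9% and 5.4% of the calls false. Because replicate effects were put in, the simulation favours the block and cannot decide whether the block is right for the real libraries.

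The members, the gene lists and the roles were chosen with earlier results of these data known. The ratios between members were not in the plan, and other pairs of the same complexes were not formed. Each ratio restates the values of its members and is no further support for a difference. Values in every library are given for the members with the 4 lowest and 2 highest fold changes in each line, those with the lowest p of each role in each line, and those at the ends of the interaction and of the control comparison. Comparison lists are given by counts and by their gene of lowest p, with NUF2, MKI67 and CCNB1 always named; the other genes named beside them were chosen after their values were seen. The alternatives were other scalings, no filter, pseudocounts of 1 and 0.01, the replicate block, all 12 libraries in 1 fit and each library left out. Limma-voom, alone and with the block, and the block without each replicate number were added after seeing the data. Python 3.11.15 with pandas 2.3.3 and matplotlib 3.10.9 gave the member tables and the plots.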

Additional observations from a re-analysis of the deposited data

Results flagged for a closer look

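For CENPM, AURKB and CDCA8, the response to si-NUF2 differed between the cell lines by the siRNA by cell line interaction with the replicate block. CENPM, a subunit of the inner kinetochore, had log2 fold changes of −0.41 (769-P) and 0.30 (ACHN), a difference of −0.71 (SE 0.0556, limma adjusted p = 0.0229, against 0.925 without the block). It was lower in 3 of 3 pairs in 769-P and higher in 3 of 3 in ACHN cells. For CDCA8 (borealin) the difference was −0.38 (SE 0.0571, limma adjusted p = 0.0415, against 0.999 without the block), with −0.35, −0.21 and −0.33 in the 769-P pairs and 0.10, 0.06 and 0.10 in the ACHN pairs. For AURKB it was −0.30 (SE 0.0488, limma adjusted p = 0.0473, against 0.999 without the block), with −0.09, −0.06 and −0.13 in the 769-P pairs and 0.20, 0.16 and 0.27 in the ACHN pairs. None of the 3 was called without the block, by limma or limma-voom.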

How the results depend on the processing

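The number of called members depended on the replicate block, the filter, the libraries fitted together and single libraries. In 769-P cells it was 10 in the fit reported first, 18 with the block, 21 with limma-voom and the block, 4 with no filter, 4 with all 12 libraries in 1 fit, and 3 to 8 with single libraries left out, and the block without replicate 1, 2 or 3 of both siRNAs gave 9 to 16. In ACHN cells it was 0 in the fit reported first, 16 with the block, 18 with limma-voom and the block, 1 with all 12 libraries in 1 fit, and 0 to 9 with the block and a replicate number left out. For the interaction it was 0, 3 with the block and 7 with limma-voom and the block. The median fold change of the members in ACHN cells, 0.20, was between 0.05 and 0.30 with single libraries left out. It was between 0.14 and 0.23 with the block and a replicate number of both siRNAs left out. The other scalings and pseudocounts left these counts within 1.5 times the first value, and the control comparison gave 22 to 28 called members over the settings run.

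With single libraries left out, the log2 fold change ran from −0.18 to 0.02 for AURKB, from −0.10 to 0.06 for CENPO and from −0.10 to 0.08 for DSN1 in 769-P cells, and from −0.10 to 0.28 for CDCA8 in ACHN cells, so these 4, of the 17 members given in every library, had no stable sign without the block. Of all members, 11 of 45 in 769-P and 12 of 44 in ACHN cells changed sign in such a fit. Within each line and in the interaction, the block changed no call of a member beyond those named in the report. Fits that leave a group with 2 libraries rest on the spread of the others. CENPP had the fewest reads of the members, at 81 to 263. How far depth or the spread between replicates limits each member was not tested. The cause of these dependences was not tested beyond the fits named.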

Other observations

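Genes that act on chromosomes after the kinetochore were also read out. Of 15 genes of the anaphase-promoting complex, the ubiquitin ligase that the spindle checkpoint holds back, ANAPC13 was called higher and ANAPC11 and ANAPC16 lower in 769-P cells, where the median log2 fold change was 0.01. ANAPC13 was at 22.6 FPKM under si-NUF2 and 18.0 FPKM under si-NC in 769-P cells (0.33, limma adjusted p = 0.0266) and at 29.5 and 22.9 FPKM in ACHN cells (0.39, limma adjusted p = 0.516). ANAPC16 was at 14.1 and 18.9 FPKM in 769-P cells (−0.41, limma adjusted p = 0.0328) and at 19.9 and 25.7 FPKM in ACHN cells (−0.35, limma adjusted p = 0.417). With the block, ANAPC13 was called higher and ANAPC16 lower in both lines, ANAPC2 and ANAPC11 were called lower in 769-P cells, and ANAPC7 and CDC27 were called higher in ACHN cells. That was 1 of 15 higher and 3 of 15 lower in 769-P cells (background 13.6% and 14%). In ACHN cells it was 3 higher and 1 lower (background 7.14% and 5.05%). Without the block, 1 was called higher and 2 lower in 769-P cells (background 5.29% and 4.74%).

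Of 15 genes of cohesin, its loaders and separase, PDS5A, a cohesin regulator, was called lower in 769-P cells, at 8.59 FPKM under si-NUF2 and 12.6 FPKM under si-NC (−0.54, limma adjusted p = 0.0244), and was at 9.92 and 12.3 FPKM in ACHN cells (−0.29, limma adjusted p = 0.502, called lower with the block at 0.0438). The list had 12 genes below 0 and 3 above in 769-P cells (median −0.08), where 48.5% of all genes were above 0. In ACHN cells it had 6 below and 9 above (median 0.07), where 51.2% of all genes were above 0. With the block SMC3, STAG2, PDS5A, ESCO2 and PTTG1 were called lower in 769-P cells and PDS5A in ACHN cells, CDCA5 was called higher in ACHN cells, and SMC1A, a core cohesin subunit, was called higher in both. That was 1 of 15 higher and 5 of 15 lower in 769-P cells (background 13.6% and 14%). In ACHN cells it was 2 higher and 1 lower (background 7.14% and 5.05%). Without the block, 1 was called lower in 769-P cells (background 4.74%).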
